A study of Mus musculus with 12 samples.

Results

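The lysyl oxidases and the collagen hydroxylases are the enzymes that modify lysine and proline residues of collagen before and after it leaves the cell. The 10 genes described here were Lox, Loxl1, Loxl2, Loxl3, Loxl4, Plod1, Plod2, Plod3, P4ha1 and P4ha2, out of 25514 genes with a transcript in the data. They were chosen by name as a family, and the choice was selected on measured values as well, because Lox had been seen at about 1% of its level in cells without TβRII. Differences between genotypes are therefore given as a description with no test, whereas the response to H2O2, which did not enter the choice, was tested. All 10 genes passed the filter on low counts, which left 12971 genes.

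The cells were conditionally immortalized proximal tubule (PT) cells from male mice that carried the Immorto-mouse transgene, a heat-sensitive T antigen, and floxed alleles of Tgfbr2, the gene of the type II TGF-β receptor (TβRII). TβRII−/− PT cells were made from TβRII flox/flox PT cells by adenoviral Cre in culture, so each genotype was 1 cell line and genotype and line cannot be told apart. They are called floxed and TβRII−/− PT cells here. Both lines were grown at 33 °C with interferon gamma and 2.5% fetal bovine serum, and 5 days before the experiment they were moved to 37 °C, where the study's methods left out interferon gamma. Untreated cells stayed in normal culture medium, and treated cells received H2O2 in serum-free medium for 24 h, so oxidant and serum withdrawal cannot be told apart either. The study's methods also describe 24 h without serum before H2O2 was added. The labels give the dose as 200 mM and the study's methods give it in micromolar. Poly(A) RNA was sequenced from 12 libraries, 3 for each of the 4 combinations of genotype and treatment. The study's methods say of its culture work in general that experiments were independent or replicates biological, and the labels do not say how these 3 libraries were made, so p-values measure the spread between these libraries, which may in part be technical.

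Fibrillar and basement membrane collagens are hydroxylated in the endoplasmic reticulum. Prolyl 4-hydroxylase, whose catalytic alpha subunit is the product of P4ha1 or P4ha2, makes the hydroxyproline that keeps the triple helix stable. The lysyl hydroxylases of the Plod genes make the hydroxylysine that carries sugars and shapes cross-links. Outside the cell the lysyl oxidases, copper enzymes encoded by Lox and Loxl1 to Loxl4, oxidize lysine and hydroxylysine to aldehydes that cross-link collagen and elastin. The hydroxylases need iron, oxygen, alpha-ketoglutarate and ascorbate. In the kidney these enzymes are best known from fibrosis, in which cross-linked matrix accumulates around the tubules.

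The 5 lysyl oxidases share a catalytic domain at the C-terminus whose copper-binding stretch holds 4 histidines. The 33 bases of coding sequence for that stretch are shown for the 4 like enzymes to let a reader see how near the members are to each other, with the histidine codons in capitals. They were read 5′ to 3′ from the GENCODE M39 transcripts that carried the counts.
Loxl1: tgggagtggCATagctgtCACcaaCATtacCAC
Loxl2: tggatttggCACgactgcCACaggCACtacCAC
Loxl3: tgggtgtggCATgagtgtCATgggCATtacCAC
Loxl4: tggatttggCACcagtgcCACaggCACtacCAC
The stretch lies at bases 1426 to 1458 of the Loxl1 coding sequence, 1864 to 1896 of Loxl2, 1804 to 1836 of Loxl3 and 1816 to 1848 of Loxl4. Loxl2 and Loxl4 had 31 of these 33 bases in common, and Loxl2 and Loxl1 had 22. From this stretch to the stop codon, aligned bases were identical in 73.4% for Loxl2 and Loxl3, in 70.6% for Loxl2 and Loxl4 and in 63.6% for Loxl1 and Loxl3. The longest run shared by the transcripts of any 2 of the 10 genes was 32 bases, which limits how many reads of 1 member can have been counted on another.

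The libraries held between 15870155 and 20857618 counts over genes. The cells kept some tubule markers and lacked others. Of 11 proximal tubule markers, 5 (Slc34a1, Slc22a6, Slc13a3, Hnf4a and Miox) had at most 3 counts in every library, while Lrp2, the endocytic receptor megalin, averaged 17280 normalized counts in untreated floxed and 11016 in untreated TβRII−/− PT cells. Cdh1 and Epcam, both of epithelial junctions, averaged 1.80 and 0.371 normalized counts in untreated floxed libraries, against 1111 and 664 in the TβRII−/− libraries. Of 12 fibroblast and myofibroblast markers 6 (Thy1, Lum, Col1a2, Col3a1, Fap and Meox1) had at most 3 counts in every library. The summed level of those 12 markers was 6080 to 7390 normalized counts in untreated floxed libraries, mostly Postn, and 2530 to 2847 in untreated TβRII−/− libraries, mostly Acta2. With H2O2 it was 2819 to 3232 and 713 to 861. The sum covers opposite moves: between untreated floxed and TβRII−/− PT cells Postn averaged 6101 and 197, and Acta2 469 and 2495. Pecam1, Emcn, Adgre1, Cd3e and Nphs1, of endothelium, leukocytes and podocytes, had at most 3 counts in every library. From the same lists, the VEGF receptor gene Kdr averaged 129 normalized counts in untreated floxed and 507 in untreated TβRII−/− PT cells, and 21.6 and 48.1 with H2O2, and Cd68 averaged 136 and 234 in untreated cells. The summed endothelial list was 125 to 138 and 460 to 584 normalized counts in untreated libraries and 20.7 to 23.3 and 38.5 to 63.6 with H2O2, and the leukocyte list stayed between 129 and 273. The part of other cell types and of this shift in epithelial markers in the results was not tested. Tgfbr2 averaged 8393 ± 843 (SD, n = 3) normalized counts in untreated floxed and 6605 ± 220 in untreated TβRII−/− PT cells. The counts were made over whole transcripts and do not resolve the excised exon, so they do not check the deletion. The study's methods report a check of the deletion by immunoblotting and RNA sequencing.

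By normalized counts per kilobase Lox was the highest of the lysyl oxidases in untreated floxed PT cells and the lowest in TβRII−/− PT cells. Lox encodes lysyl oxidase itself and lies on chromosome 18 from 52516060 to 52529867 of GRCm38.p6. The untreated floxed libraries had 13195, 12400 and 11193 normalized counts, and the untreated TβRII−/− libraries had 137, 124 and 97.6. Every TβRII−/− library was far below every floxed library, and the mean was 0.975% of the floxed mean, which is 103-fold lower. With H2O2 the 3 floxed libraries had 4691, 4837 and 5098 normalized counts and the TβRII−/− libraries had 53.5, 50.3 and 37.8. All groups were apart from each other, and with H2O2 the TβRII−/− mean was 0.968% of the floxed mean. In bulk RNA fewer cells of a type and less RNA per cell cannot be told apart.

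Loxl1, best known for the cross-linking of elastin, lies on chromosome 9 from 58287723 to 58313212 and shared the direction of Lox between genotypes. Its 3 libraries had 6097, 6034 and 5612 normalized counts in untreated floxed PT cells against 531, 439 and 403 in the TβRII−/− libraries. With H2O2 they had 8925, 9111 and 8350 normalized counts against 548, 484 and 591. The genotypes did not overlap under either condition, and the floxed mean was 12.9-fold higher in untreated cells and 16.3-fold higher with H2O2.

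Loxl2, a lysyl oxidase of basement membrane collagen IV, lies on chromosome 14 from 69608692 to 69695834 and had the opposite pattern. floxed PT cells were close to the detection limit, with 4, 3 and 8 raw counts in the untreated libraries and 2, 14 and 2 in the H2O2 libraries. TβRII−/− PT cells had 316, 356 and 298 raw counts untreated and 265, 296 and 272 with H2O2. From the summed counts the level in TβRII−/− PT cells was 59.2 times that of floxed PT cells in untreated cells, with an exact 95% interval of 35.7 to 106, and 38.9 times with H2O2, with an interval of 24.5 to 66.0. These intervals cover counting error only. The 14 counts of replicate 2 made up most of the counts of the treated floxed group, and without that library the log2 fold change between genotypes with H2O2 was 6.74 in place of 5.26. Without replicate 3 of the untreated floxed group, the library with 8 counts, the value for untreated cells was 6.35 in place of 5.86.

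Loxl3 and Loxl4 moved apart from each other between the genotypes. Loxl3, on chromosome 6 from 83034205 to 83052566, had 791, 688 and 593 normalized counts in untreated floxed and 311, 312 and 305 in untreated TβRII−/− PT cells. Loxl4, on chromosome 19 from 42592279 to 42612806, had 834, 746 and 715 against 2102, 1835 and 1836. Every library of 1 genotype was on the same side of every library of the other for both genes. Loxl3 was 2.23-fold lower and Loxl4 2.52-fold higher in untreated TβRII−/− PT cells, and with H2O2 the differences were 2.87-fold and 2.13-fold in the same directions.

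**Figure D1:**
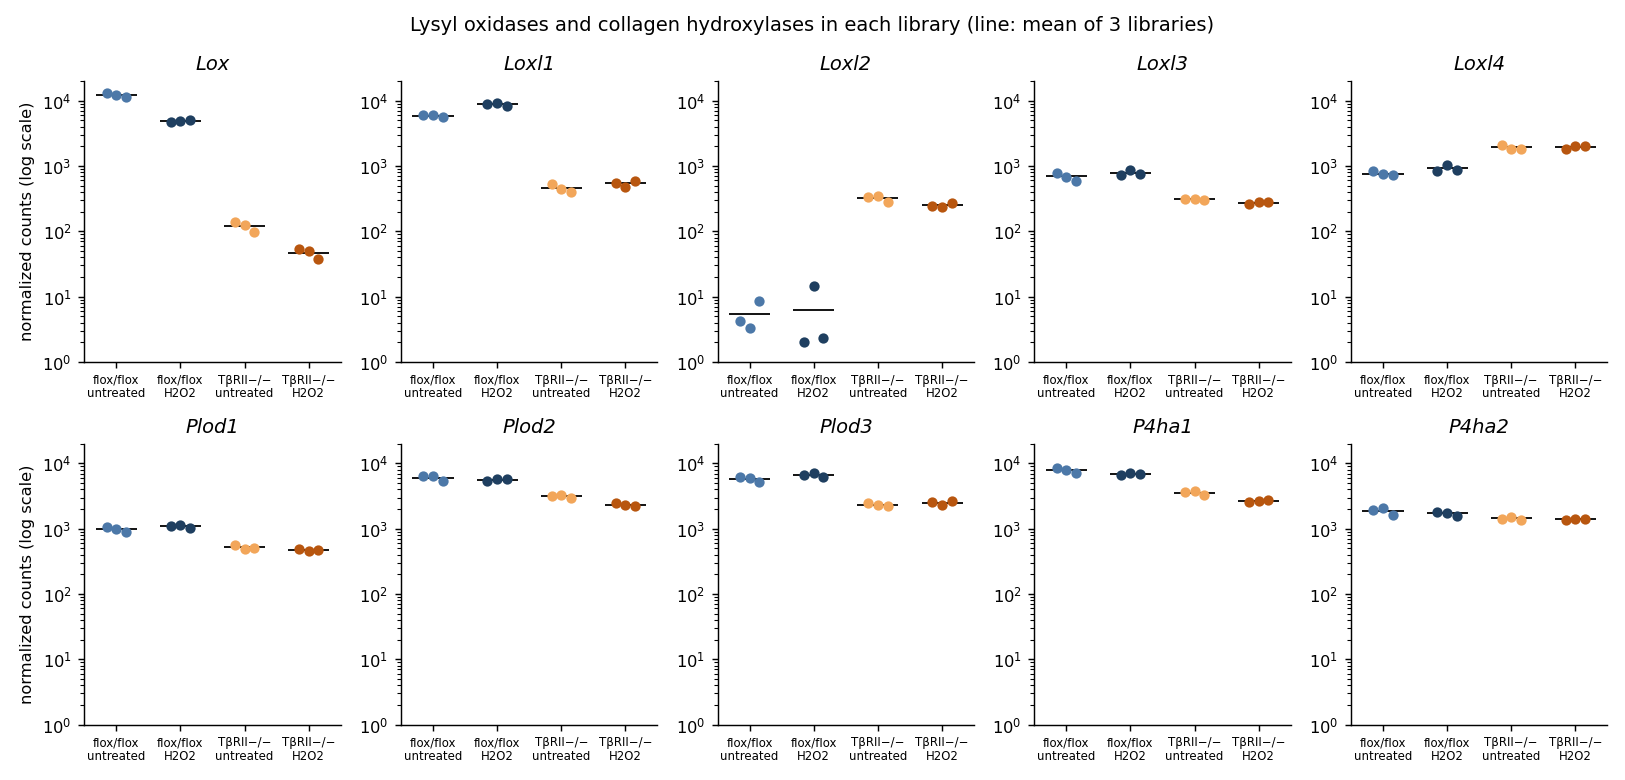
Normalized counts on a log axis for each of the 10 genes, 1 panel a gene, with 1 point for each of 3 libraries in the 4 groups and a line at the group mean. Lox falls from 12263 to 120 between untreated floxed and TβRII−/− PT cells, Loxl2 rises from 5.38 to 320, and P4ha2 moves least, from 1874 to 1439.

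Because these genes differ in transcript length, levels were compared between genes per kilobase of transcript. In untreated floxed PT cells the order was Lox with 2566 ± 211 (SD, n = 3) normalized counts per kilobase, then Loxl1 with 1776 ± 79.3, Loxl3 with 168 ± 24.2, Loxl4 with 140 ± 11.4 and Loxl2 with 1.01 ± 0.531. The ranges of Loxl3 and Loxl4 overlapped. In untreated TβRII−/− PT cells Loxl4 led with 353 ± 28.3 normalized counts per kilobase, ahead of Loxl1 with 137 ± 19.9, Loxl3 with 75.4 ± 0.828, Loxl2 with 60.2 ± 5.83 and Lox with 25.0 ± 4.19, and no neighbours overlapped. Summed over the 5 genes, the level per kilobase was 4652 ± 321 in untreated floxed and 651 ± 54.5 in untreated TβRII−/− PT cells, which is 7.14-fold lower.

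The make-up of the family differed as well as its sum. Lox took 55.1% ± 0.749 (SD, n = 3) of the summed level per kilobase in untreated floxed libraries and 3.83% ± 0.397 in the TβRII−/− libraries. Loxl4 took 3.02% ± 0.102 and 54.3% ± 1.27. With H2O2 the leading gene of floxed PT cells changed, since Loxl1 took 65.6% ± 1.60 and Lox 25.4% ± 1.57, whereas Loxl4 still led in TβRII−/− PT cells with 55.7% ± 1.92.

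**Figure D2:**
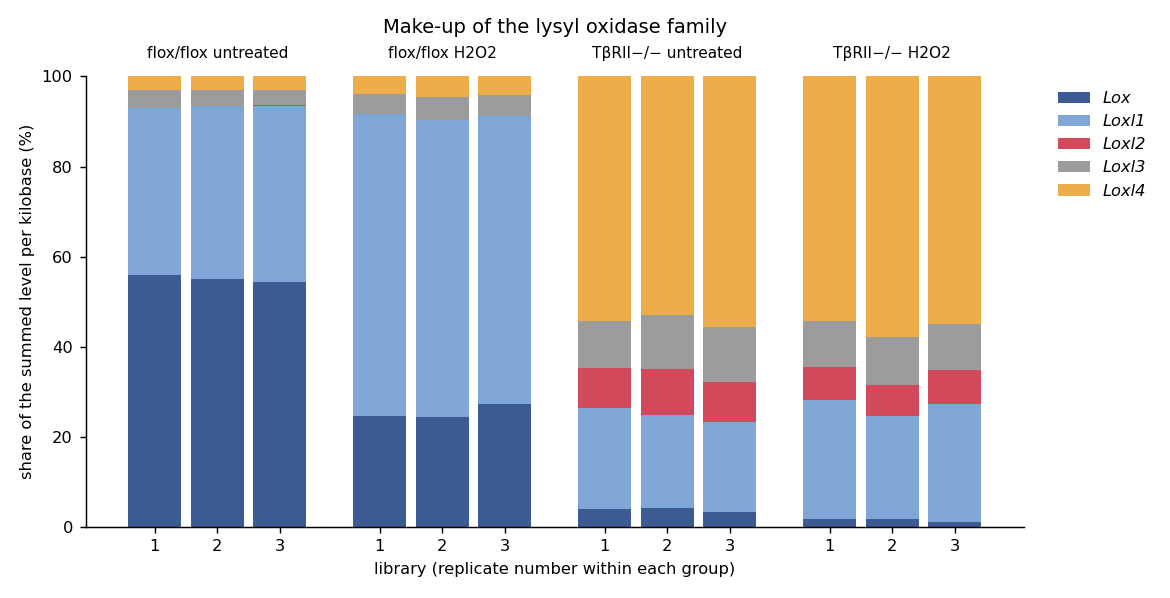
Share of each lysyl oxidase gene in the summed level per kilobase of the 5 genes, in percent, as 1 stacked bar for each of the 12 libraries. Lox (dark blue) and Loxl1 (light blue) fill most of the floxed bars, Loxl4 (yellow) fills over 53% of every TβRII−/− bar, and Lox drops from 55.1% to 25.4% with H2O2 in floxed PT cells.

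The lysyl hydroxylases were lower in TβRII−/− PT cells by smaller amounts. Plod2, which hydroxylates lysines in the collagen telopeptides and lies on chromosome 9 from 92539636 to 92608428, had 6370, 6299 and 5449 normalized counts in untreated floxed and 3217, 3261 and 2989 in untreated TβRII−/− PT cells. Plod3, on chromosome 5 from 136987019 to 136996646, whose product also adds sugars to hydroxylysine, had 6195, 5949 and 5152 against 2490, 2328 and 2193. Plod1, which acts on lysines of the helix and lies on chromosome 4 from 147909753 to 147936776, had 1051, 1000.4 and 896 against 564, 489 and 511. The genotypes did not overlap for any of the 3 genes, and the floxed means were 1.91-fold, 2.47-fold and 1.88-fold higher. Per kilobase, Plod2 and Plod3 were near each other and Plod1 was the lowest in every group, with 4.66% to 5.61% of the 3 genes' summed level.

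The prolyl 4-hydroxylase subunits differed from each other in size. P4ha1, on chromosome 10 from 59323197 to 59373304, had 8468, 8039 and 7035 normalized counts in untreated floxed and 3683, 3723 and 3315 in untreated TβRII−/− PT cells, a 2.20-fold difference. P4ha2, on chromosome 11 from 54100924 to 54131668, had 1924, 2065 and 1633 against 1414, 1522 and 1380. Its libraries did not overlap either, but the difference was 1.30-fold. Of the summed level per kilobase of these 2 genes, P4ha2 took 29.9% ± 1.38 (SD, n = 3) in untreated floxed and 41.8% ± 1.04 in untreated TβRII−/− PT cells.

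In all, 7 of the 10 genes were lower and 2 (Loxl2 and Loxl4) higher in untreated TβRII−/− PT cells, counted where the libraries did not overlap and the means differed at least 1.5-fold. Of all 12971 genes, 11.8% were lower and 16.2% higher by the same count. With H2O2 it was again 7 lower, beside 13.4% of all genes, and 2 higher, beside 17.4%. Nothing is read from these shares, since the genes had been selected on this contrast. Plod1, at 1.88-fold, was the nearest inside the limit of 1.5 in untreated cells, and P4ha2, at 1.30-fold, lay outside it. The median log2 difference of the 10 genes was −1.04 in untreated cells and −1.32 with H2O2, beside 0.0085 and 0.0185 over all genes tested.

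Next, the response to H2O2 in serum-free medium was compared within each genotype. In floxed PT cells Lox and P4ha1 fell and Loxl1, Loxl4 and Plod3 rose, at an adjusted p under 0.05 by the quasi-likelihood test of edgeR, with p-values adjusted by Benjamini-Hochberg over all 12971 genes. That is 3 of 10 genes higher, beside 21.0% of all genes, and 2 lower, beside 20.5%. Lox fell by 1.33 on the log2 scale (SE 0.07, adjusted p = 3.08e-16), to 39.8% of its untreated mean. Loxl1 rose by 0.57 (SE 0.07, adjusted p = 7.59e-08), to 149% of its untreated mean, and no treated library overlapped an untreated library for either gene.

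The other calls in floxed PT cells were small. Loxl4 rose by 0.26 on the log2 scale (SE 0.08, adjusted p = 0.00724), from 715 to 834 normalized counts untreated to 843, 1030 and 882 with H2O2. Plod3 rose by 0.22 (SE 0.07, adjusted p = 0.0109), with treated libraries at 6720, 7168 and 6260 normalized counts. P4ha1 fell by 0.19 (SE 0.07, adjusted p = 0.0211), with treated libraries at 6660, 7125 and 6869 that overlapped the untreated range. The log2 fold changes of the 5 genes not called were 0.23 for Loxl2, 0.19 for Loxl3, 0.15 for Plod1, −0.10 for Plod2 and −0.13 for P4ha2. The value of Loxl2 turned to −1.28 without replicate 2 of the treated group, which held 14 of its 18 treated counts. Without replicate 2 of the treated group the adjusted p was 0.101 for Loxl4 and 0.0806 for Plod3, without replicate 3 of the untreated group it was 0.0757 for Plod3, and for P4ha1 it lay between 0.0772 and 0.149 without untreated replicate 1 or 2 or treated replicate 1 or 3. With counts summed over the transcripts of a gene Loxl4 (adjusted p = 0.0996) and P4ha1 (adjusted p = 0.0537) were not called, and with only the groups compared in the fit P4ha1 (adjusted p = 0.0557) was not.

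In TβRII−/− PT cells Lox, Loxl2, Plod2 and P4ha1 fell with H2O2 and Loxl1 rose. That is 1 of 10 genes higher, beside 20.5% of all genes, and 4 lower, beside 19.1%. Lox fell by 1.32 on the log2 scale (SE 0.16, adjusted p = 3.90e-08), to 39.5% of its untreated mean. Plod2 fell by 0.43 (SE 0.06, adjusted p = 3.33e-06), from 3217, 3261 and 2989 normalized counts to 2450, 2318 and 2260. P4ha1 fell by 0.42 (SE 0.07, adjusted p = 8.88e-06), to 2570, 2660 and 2786 normalized counts. For these 3 genes every treated library was below every untreated library.

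The remaining calls in TβRII−/− PT cells did not hold when libraries were left out. Loxl2 fell by 0.36 on the log2 scale (SE 0.13, adjusted p = 0.0238), from 330, 345 and 285 normalized counts to 245, 233 and 270. Loxl1 rose by 0.24 (SE 0.09, adjusted p = 0.0297), with overlapping libraries. Leaving out untreated replicate 1 or 2 or treated replicate 1 or 2 ended the call of Loxl2 (adjusted p 0.0621 to 0.110), and leaving out untreated replicate 2 or 3 or treated replicate 1 or 3 ended that of Loxl1 (adjusted p 0.0829 to 0.214). With counts summed over transcripts Loxl2 (adjusted p = 0.153) and Loxl1 (adjusted p = 0.0814) were not called. The log2 fold changes of the 5 genes not called were −0.17 for Loxl3, 0.03 for Loxl4, −0.14 for Plod1, 0.10 for Plod3 and −0.06 for P4ha2.

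**Figure D3:**
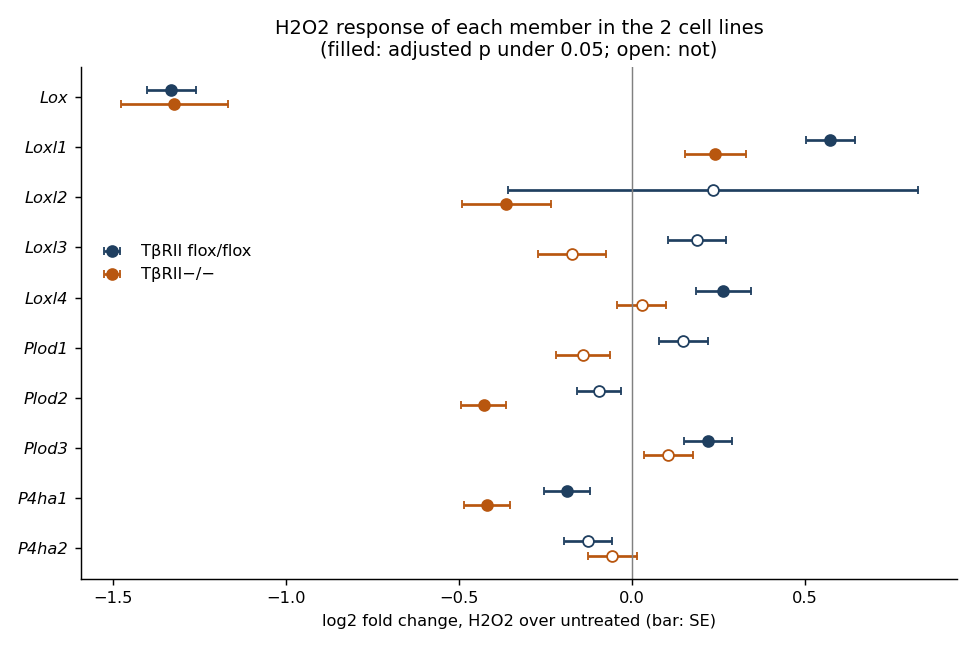
Log2 fold change of H2O2 over untreated cells with its SE for each of the 10 genes, blue for floxed and orange for TβRII−/− PT cells, filled where the adjusted p was under 0.05. Lox lies at −1.33 and −1.32, while Plod2 lies at −0.10 and −0.43.

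Whether the response depended on genotype was tested directly, as the difference of both log2 fold changes. Plod2 was the only one of the 10 genes called, with a response lower by 0.33 on the log2 scale in TβRII−/− PT cells (log2 difference −0.33, SE 0.09, adjusted p = 0.0159). That is 1 of 10 lower and 0 of 10 higher, beside 6.28% and 3.90% of all genes. In floxed PT cells Plod2 had 6370, 6299 and 5449 normalized counts untreated and 5408, 5723 and 5813 with H2O2, so those groups overlapped, and in TβRII−/− PT cells they did not. Without replicate 2 of untreated TβRII−/− PT cells the adjusted p of Plod2 was 0.0535.

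For Lox the difference of the responses was 0.0084 (SE 0.17, adjusted p = 0.995), with falls to 39.8% and 39.5% of levels that stood 103-fold apart. A p above the threshold does not show that both falls were equal. Loxl1 (−0.33, SE 0.11, adjusted p = 0.0535), Loxl3 (−0.36, SE 0.13, adjusted p = 0.0694) and Plod1 (−0.29, SE 0.11, adjusted p = 0.0767) missed the threshold by little. Loxl1 passed it under 8 of 18 alternatives, among them DESeq2's test (adjusted p = 0.0266). Without replicate 1 of untreated floxed PT cells 6 genes passed the threshold, among them Loxl3 (adjusted p = 0.00504), P4ha1 (adjusted p = 0.0160) and Plod1 (adjusted p = 0.0184). The differences were −0.24 for Loxl4, −0.23 for P4ha1, −0.12 for Plod3 and 0.07 for P4ha2. That of Loxl2, −0.60 with an SE of 0.61, rested on the few counts of the floxed libraries and was 0.89 without treated replicate 2. The median over the 10 genes was −0.26, beside 0.0144 over all genes tested.

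Annotated transcripts of a gene were counted separately, and a read can count on several of them. The coding transcripts of Lox differed between genotypes by log2 ratios of −6.70 and −6.68 in untreated cells, and with H2O2 they had log2 ratios of −1.33 and −1.33 in floxed and −1.34 and −1.31 in TβRII−/− PT cells. Both coding transcripts of Plod2, of 3725 and 3662 bases, had nearly the same counts in every group, so the data do not tell apart the forms with and without the short alternative exon. The second coding transcript of Loxl2 had 44.4% of the counts of the first in untreated and 46.3% in treated TβRII−/− PT cells.

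The genes whose levels across the 12 libraries were most like those of Lox were found by the distance between log2 CPM, which scales counts to the size of the library, each centred on untreated floxed PT cells, over 12596 protein-coding genes. Among the 5 nearest were Brinp3 (distance 2.13), Armcx2 (3.36) and Cachd1 (3.47). Brinp3 had means of 1227 and 949 normalized counts in untreated and treated floxed and 13.9 and 5.60 in TβRII−/− PT cells. For Loxl2, the gene with the largest difference of responses in size, Mab21l4 (1.71), Spi1 (1.79), Gsta4 (1.81) and B4galt6 (1.89) were among the 5 nearest. Gsta4, a glutathione transferase, had 5.37 and 4.65 normalized counts in floxed and 433 and 322 in TβRII−/− PT cells. These distances rest on 12 libraries in 4 groups and are a description.

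The substrates and partners of these enzymes were mostly lower in TβRII−/− PT cells too. Of 17 collagens, elastic fibre proteins and partners, 14 were tested, and 12 were lower and 2 (Fbn2 and Fbln1) higher in untreated TβRII−/− PT cells, beside 11.8% and 16.2% of all genes, with a median log2 difference of −3.03 beside 0.0085 over all genes. Col4a1, a chain of basement membrane collagen IV, averaged 34727 normalized counts in untreated floxed and 4349 in untreated TβRII−/− PT cells. Postn, the matricellular protein periostin, averaged 6101 and 197. Col1a2 and Col3a1, chains of the interstitial collagens, had at most 3 counts in every library.

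With H2O2 more substrates rose than fell in floxed PT cells, where 8 of 14 rose and 1 fell, beside 21.0% and 20.5% of all genes, with a median log2 fold change of 0.38 beside 0.0068 over all genes. In TβRII−/− PT cells 2 rose and 5 fell, beside 20.5% and 19.1%. The responses differed between genotypes for 6 of 14, all lower in TβRII−/− PT cells, beside 6.28% of all genes. The largest rises in floxed PT cells were those of Fmod (1.32, SE 0.38), a collagen-binding proteoglycan with means of 10.8 and 26.9 normalized counts, and Fbn2 (1.26, SE 0.38), a fibrillin with means of 7.86 and 19.0. Col6a1, a chain of collagen VI, had the largest negative difference, with a rise of 0.51 in floxed and a fall of 0.66 in TβRII−/− PT cells (difference −1.17, SE 0.14, adjusted p = 6.10e-07). The 1 gene that fell in floxed PT cells was Postn, named here after its values were seen, at −1.15 there and −1.16 in TβRII−/− PT cells, while Lox was at −1.33 and −1.32.

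Of 25 genes of collagen maturation, which fold, trim or export procollagen, 21 were tested. In untreated TβRII−/− PT cells 11 were lower and 3 higher, beside 11.8% and 16.2% of all genes, with a median log2 difference of −0.62. Adamts2, the procollagen N-proteinase, was the highest against floxed PT cells of the genes of this list, with means of 143 and 2.52 normalized counts in untreated cells, and Tll1, a procollagen C-proteinase, was lower, with means of 11.9 and 324. With H2O2, 7 of 21 rose and 4 fell in floxed PT cells, beside 21.0% and 20.5% of all genes, and 4 rose and 5 fell in TβRII−/− PT cells, beside 20.5% and 19.1%. Tll1 fell most in floxed PT cells, by 1.86 on the log2 scale (SE 0.14). P4ha3, the remaining prolyl 4-hydroxylase alpha subunit, rose by 1.22 (SE 0.47) in TβRII−/− PT cells, from a mean of 4.95 to 11.8 normalized counts. P4hb, the beta subunit that P4ha1 and P4ha2 pair with, fell by 0.31 in TβRII−/− PT cells (adjusted p = 0.000458), beside −0.09 in floxed PT cells (adjusted p = 0.300). Its difference of responses was not called by edgeR's quasi-likelihood test (−0.22, SE 0.09, adjusted p = 0.143).

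Lox is also a textbook target of TGF-β, and among 9 such targets 6 were lower and 1 (Tgfbi) higher in untreated TβRII−/− PT cells, beside 11.8% and 16.2% of all genes, with a median log2 difference of −1.66. With H2O2, 5 of 9 fell and 1 rose in floxed PT cells, beside 20.5% and 21.0% of all genes. In TβRII−/− PT cells 3 fell and 2 rose, beside 19.1% and 20.5%. Ccn2 (−1.47 and −1.35), which encodes a matricellular protein, and Tagln (−0.83 and −1.94), an actin-binding protein, fell in both. Tagln differed between genotypes (difference −1.11, SE 0.13, adjusted p = 4.37e-07).

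Lox, Plod2, P4ha1 and P4ha2 are known hypoxia-inducible genes, and 18 other genes of that response were set beside them. Of 17 tested, 9 fell and 3 rose with H2O2 in each genotype, beside 20.5% and 21.0% of all genes in floxed and 19.1% and 20.5% in TβRII−/− PT cells, with a median log2 fold change of −0.50 in floxed and −0.26 in TβRII−/− PT cells. The glycolytic genes Ldha (−0.89 and −0.85) and Pgk1 (−0.75 and −0.67) fell in both, as did Slc2a1, a glucose transporter (−0.43 and −0.54). Ndrg1 (0.47 and 0.34), Pfkfb4 (0.41 and 0.51) and Kdm3a (0.31 and 0.17) rose in both. Hk2 (difference 0.48, SE 0.11, adjusted p = 0.00367) and Egln1 (difference 0.29, SE 0.09, adjusted p = 0.0317) had less negative responses in TβRII−/− PT cells, the opposite sign to Plod2. Between untreated genotypes 5 of the 17 genes were higher and 0 lower in TβRII−/− PT cells, beside 16.2% and 11.8% of all genes. Their median log2 difference was 0.33, while Lox, Plod2 and P4ha1 were lower in those cells. P4ha2 was 1.30-fold lower there, which did not reach the limit of 1.5. Hypoxia itself was not a condition of the study.

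**Figure D4:**
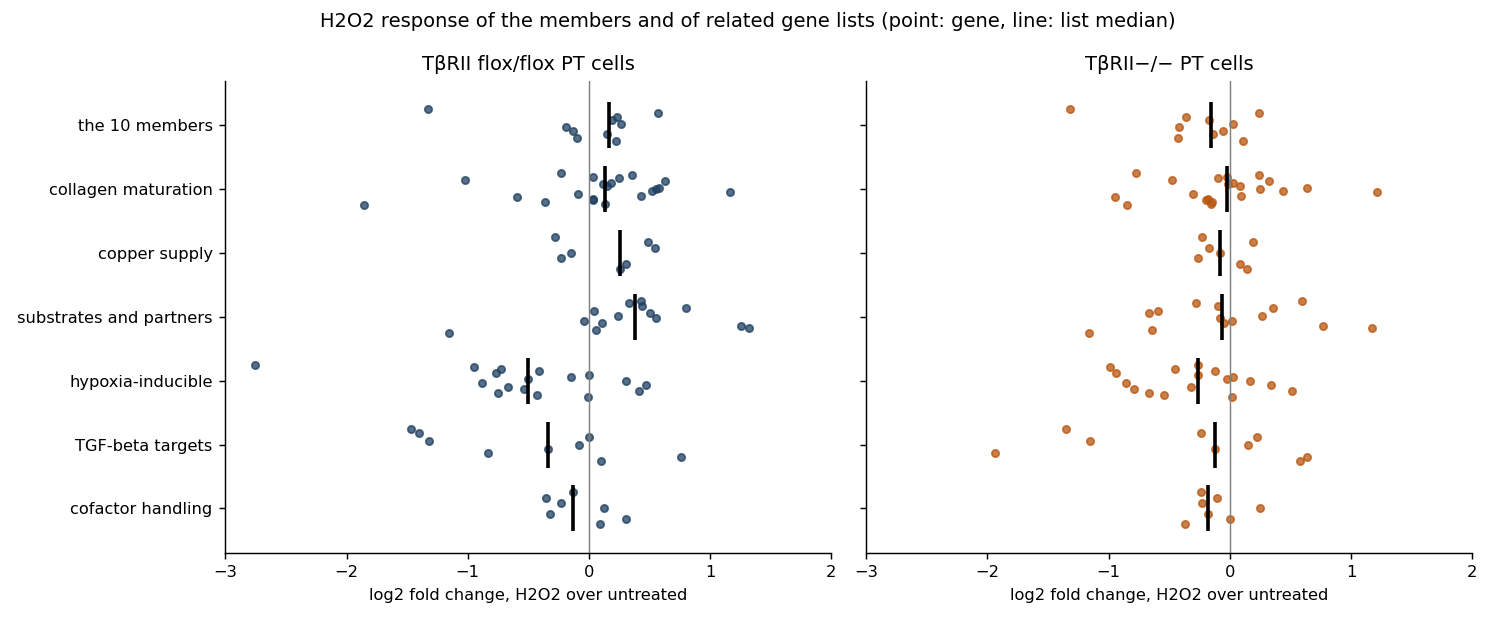
Log2 fold change of H2O2 over untreated cells for the 10 genes and for the tested genes of 6 related lists, 1 point a gene and a line at each list's median, in floxed (left) and TβRII−/− PT cells (right). The median of the 10 genes is 0.17 on the left and −0.16 on the right, and that of the hypoxia-inducible list is −0.50 and −0.26. The point at −2.76 is Adm, which had 0 or 1 raw counts in every floxed library.

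The promoters of P4ha1 and P4ha2 are shown because these genes encode alternative subunits of 1 enzyme and the RefSeq table holds both. With H2O2, P4ha1 was called in both genotypes, the floxed call being lost under some alternatives, and P4ha2 in neither. The difference between the 2 genes was not tested, and in floxed PT cells their log2 fold changes were −0.19 (SE 0.07) and −0.13 (SE 0.07). The letters are promoter windows of 250 bases from RefSeq (GRCm38.p6), 5′ to 3′ on the gene's strand. Capitals mark ACGTG or GCGTG, the core of the hypoxia response element, on either strand. The P4ha1 window is at chr10:59323046-59323295 and that of P4ha2 at chr11:54100674-54100923, both on the plus strand. The P4ha2 window ends just before the gene start given above. That of P4ha1 runs past its gene start at 59323197, and its CACGT match lies past that start.
P4ha1: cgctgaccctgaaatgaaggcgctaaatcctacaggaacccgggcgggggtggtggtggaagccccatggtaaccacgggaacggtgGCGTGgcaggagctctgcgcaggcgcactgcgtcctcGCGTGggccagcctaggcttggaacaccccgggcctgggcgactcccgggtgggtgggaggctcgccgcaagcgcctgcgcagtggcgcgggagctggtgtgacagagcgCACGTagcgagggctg
P4ha2: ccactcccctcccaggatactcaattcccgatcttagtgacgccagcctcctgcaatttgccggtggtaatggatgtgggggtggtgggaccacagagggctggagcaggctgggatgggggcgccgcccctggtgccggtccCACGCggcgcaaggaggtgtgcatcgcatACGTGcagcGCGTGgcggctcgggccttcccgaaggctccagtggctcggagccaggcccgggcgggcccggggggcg
Both windows held 3 matches. At least 1 match was in 38.6% of the 32851 promoters of the same length, a share that does not count matches per window. The P4ha1 and P4ha2 windows were 69.6% and 70.0% G or C, and promoters of like content were not compared. The 2 motifs share their last 4 letters, and CACGTG would count on both strands. The windows of Plod3, Plod1 and Loxl4 held 4, 1 and 1 matches. TGANTCA, the motif of AP-1, was in none of these 5 windows and in 6.75% of all promoters. Promoters of the other 5 genes were not analysed here. A match is a string of letters and does not show binding.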

How the data were processed

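RNA of 12 libraries was sequenced as stranded poly(A) libraries. The authors aligned reads with STAR to GRCm38.p6 and counted them with featureCounts, and the deposited values are raw counts per transcript, in which a read may count on several transcripts of a gene. The files hold 106332 transcripts, of which 104820 matched GENCODE M39 by identifier. Unmatched transcripts held 1.22% to 1.28% of counts and were left out. Each gene was represented by its transcript with the highest total. Counts over genes were 15870155 to 20857618 per library. Genes were filtered with filterByExpr, leaving 12971, scaled by TMM and fitted with group means in edgeR 4.0.16 (R 4.3.3, glmQLFit and glmQLFTest), tested on simulated data first. P-values were adjusted by Benjamini-Hochberg over all genes tested. Normalized counts are counts scaled to the mean effective library size of 17351835. SE is the log2 fold change divided by the root of F, and for the difference of responses the root of the summed squares. Alternatives were DESeq2 1.42.0 as a tool and for size factors, no filter or 10 counts in every library, the replicate number as a block, only the groups compared, sums over transcripts, the study's limits (p of 0.01 and 1.5-fold), a ratio of 2, and leaving out each library.

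The members and the 6 lists (84 genes, 75 tested) were chosen with earlier results of these data known. All members were named. List genes were named where they had the 2 largest rises or falls of a tested comparison or the largest difference each way between genotypes, and others as examples of their list. Some genes that these rules name are not reported here. The genotype comparisons carry no p because the choice of genes used them. Coordinates and promoters are those of RefSeq (GRCm38.p6), which gave promoters for 5 members, and coding sequences those of GENCODE M39. Identities were computed with Biopython 1.88 from global alignments.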

Additional observations from a re-analysis of the deposited data

Results flagged for a closer look

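Plod2 was flagged because its response to H2O2 differed between TβRII−/− and floxed PT cells by the test of the difference itself, at −0.3326 on the log2 scale (SE 0.09, edgeR quasi-likelihood test, adjusted p = 0.0159). In TβRII−/− PT cells all 3 treated libraries were below all 3 untreated libraries, and in floxed PT cells they overlapped. Groups of 3 libraries are too small for the check on single outlying samples.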

How the results depend on the processing

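Lox fell with H2O2 in both genotypes under every alternative, by 1.26 to 1.39 on the log2 scale in floxed and by 1.20 to 1.45 in TβRII−/− PT cells, and so did Plod2 (by 0.40 to 0.47) and P4ha1 (by 0.39 to 0.47) in TβRII−/− PT cells. Loxl1 rose by 0.54 to 0.62 in floxed PT cells under every alternative. The count of genes changed by H2O2, 5 in each genotype, was 3 in each with sums over transcripts and 1 in each (Lox) with the study's limits of p and fold change. It ranged from 3 to 6 in floxed and from 3 to 4 in TβRII−/− PT cells when libraries were left out in turn. The count of genes whose response differed between genotypes, 1, was 2 with DESeq2's size factors, with DESeq2's test and with at least 10 counts in every library, 3 with no filter and 0 with the study's limits, and it ranged from 0 to 6 with libraries left out. Loxl2 could not be fitted with at least 10 counts in every library. Values near 0 changed sign, and so did those of Loxl2 that rested on the few counts of the floxed libraries. The Lox difference was −0.0069 with DESeq2's size factors, −0.0096 with DESeq2's test and −0.0064 with sums over transcripts, and ranged from −0.12 to 0.1334 with libraries left out. With libraries left out the Loxl2 log2 fold change ranged from −1.2753 to 0.7361 in floxed PT cells and its difference from −1.1177 to 0.8938, the Loxl4 log2 fold change in TβRII−/− PT cells from −0.0063 to 0.0945, and the P4ha2 difference from −0.0275 to 0.1384. The causes were not tested.

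Samples of the same replicate number did not deviate together: the correlation of deviations lay between −0.0898 and 0.0582 over 12 same-numbered pairs. Counting a library once in each comparison that it entered gave 24 cases, each with 3 numbers to match. In 8 of them the library deviated most like its own number. These values cannot show whether libraries of the same number were prepared together. With the replicate number as a block the counts were again 5, 5 and 1, and over all genes 5235, 4981 and 1202 in place of 5392, 5135 and 1321. The counts of genes apart between genotypes, 9 and 9, were 7 and 9 at a ratio of 2. Depth limits Loxl2 in floxed PT cells, with 2 to 14 counts a library.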

Other observations

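The genes that supply the enzymes with copper and other cofactors were given lists of their own. By the count used for the 10 enzymes, 1 of 7 copper genes was higher and 0 lower in untreated TβRII−/− PT cells. Of all genes, 16.2% were higher and 11.8% lower. The 1 copper gene was Atp7b, a copper pump, with means of 5.76 normalized counts in floxed and 37.2 in TβRII−/− PT cells. Atp7a, the pump that loads secreted copper enzymes, averaged 858 and 734. With H2O2, Atp7a (0.48), the importer Slc31a1 (0.31) and Slc31a2 (0.25) rose in floxed PT cells on the log2 scale, and the chaperone Atox1 fell in both genotypes (−0.28 and −0.23). That is 3 of 7 higher and 1 lower in floxed PT cells, beside 21.0% and 20.5% of all genes. In TβRII−/− PT cells it was 0 higher and 1 lower, beside 20.5% and 19.1%. None of the 7 genes was called for the difference of responses by edgeR's quasi-likelihood test, beside 3.90% of all genes higher and 6.28% lower.

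Of 8 genes that handle ascorbate, iron or alpha-ketoglutarate, 7 were tested. In untreated TβRII−/− PT cells 3 of these 7 were higher and 0 lower, beside 16.2% and 11.8% of all genes. Slc23a2, an ascorbate transporter, averaged 485 normalized counts in untreated floxed and 971 in untreated TβRII−/− PT cells, and Fth1, the ferritin heavy chain, averaged 9527 and 18424. With H2O2, 3 fell and 1 rose in floxed, beside 20.5% and 21.0% of all genes, and 4 fell and 1 rose in TβRII−/− PT cells, beside 19.1% and 20.5%. Tfrc, the transferrin receptor, was the 1 gene whose response differed, at 0.09 in floxed and −0.37 in TβRII−/− PT cells (difference −0.46, adjusted p = 0.000856). That is 1 of 7 lower and 0 higher by edgeR's quasi-likelihood test, beside 6.28% and 3.90% of all genes. Genes of these lists are named here as examples, and what they mean for the enzymes was not tested.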
